A study of Mus musculus with 3 samples.

Results

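The genes described here are the secreted and membrane-bound metalloproteases of the mouse soft palate and the proteins that inhibit them. Members were taken by name: every *Mmp*, *Adam*, *Adamts*, *Adamtsl* and *Timp* symbol with at least 20 unique molecular identifiers (UMIs, each counting 1 captured transcript) over 3 single-cell libraries. Of 83 such symbols among the 32285 genes of the files, 58 were members: 15 of 22 *Mmp*, 16 of 33 *Adam*, 18 of 19 *Adamts*, 5 of 5 *Adamtsl* and 4 of 4 *Timp* genes. A further 12 symbols held between 1 and 19 UMIs, and 13 held none. The members just inside the limit were *Adam5* with 20 UMIs and *Mmp28* with 25, and the symbols just outside it were *Mmp3* with 18 and *Adam32* with 14.

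Matrix metalloproteases (MMPs) cut collagens and other matrix proteins, some from the cell surface and some after secretion. ADAM proteins are membrane proteins, several of which release the outer part of growth factors, cytokines and receptors, while ADAMTS proteases are secreted and cut procollagens or proteoglycans such as versican. ADAMTS-like proteins share the ancillary domains of the ADAMTS enzymes but lack the protease, and the tissue inhibitors of metalloproteases (TIMPs) block the active site. In the developing palate, versican cleavage by ADAMTS9 and ADAMTS20 and collagen remodelling by the membrane enzyme MMP14 are known parts of mesenchymal growth.

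The study asked how transforming growth factor beta signaling in palatal mesenchyme bears on the muscle beside it. Soft palates of C57BL/6 embryos at E14.5 gave 2 control libraries and 1 library labelled Osr2-Cre;Alk5fl/fl, *Alk5* being an older symbol of *Tgfbr1*, a receptor of that pathway. *Osr2-Cre* acts in palatal mesenchyme and not in the muscle lineage, and per the study's methods the soft palate was cut from the back of the palate and dissociated with TrypLE. Controls were labelled only as control, and the study describes its controls as *Tgfbr1* fl/fl or *Tgfbr1* fl/+ littermates. The number of embryos pooled in a library is not given in the sources used here. The p-values set differences between cell types against how much those differences vary over these 3 libraries, the mutant among them. That variation may be technical. Values are given throughout in the order control 1, control 2 and mutant, as CPM (UMIs of a gene per 1000000 UMIs) of all cells of a type summed within a library. Because the 3′ chemistry counts transcript ends, CPM can be set side by side between genes without a length correction.

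The libraries held 2816, 4067 and 8690 barcodes with 22624711, 27814907 and 63505144 UMIs, of which 2117, 3821 and 8111 barcodes passed the filters. Between 18 and 49 barcodes were shared by any 2 libraries. Cell types were gated on fixed marker lists that hold no member, giving 1304, 2489 and 4491 mesenchymal, 134, 177 and 301 epithelial, 43, 113 and 157 macrophage and 76, 132 and 128 muscle cells. *Tgfbr1* stood at 55.0, 60.7 and 49.6 CPM in mesenchyme (log2 ratio of mutant to controls -0.22), but a 3′ tag still counts a transcript that lost an internal exon, so this does not check the label. *Osr2*, the gene that carries the Cre, stood at 244, 332 and 114 CPM there. For some other cell types control 1 carried the most marker RNA in its mesenchymal barcodes: summed hemoglobin genes reached 3864, 996 and 482 CPM, muscle markers 92.9, 21.2 and 7.31 CPM and macrophage markers 53.7, 22.3 and 4.38 CPM. Marker sums of neurons, glia, mural cells and cartilage were instead highest in the mutant. They reached 117, 93.0 and 139 CPM for neurons and 81.7, 82.8 and 133 CPM for cartilage.

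Mesenchyme held the most members at 10 CPM or more in every library, 19 of 58, followed by glia and mural cells with 15 each, endothelium with 12, epithelium with 11, muscle and cartilage with 6 each, and macrophages and neurons with 5 each. Glia, mural cells, cartilage and neurons rested on as few as 6, 12, 6 and 8 cells in a library. Another 13 members stayed under 1 CPM in mesenchyme in every library, *Mmp8*, *Mmp12*, *Mmp13*, *Mmp19*, *Mmp24*, *Mmp25* and *Mmp28* among them. The test between cell types used those with at least 20 cells in every library, mesenchyme, epithelium, macrophages and muscle, each against the mean of the other types with the library as a block. A member was called higher or lower at an adjusted p under 0.05 with a 2-fold difference, and 26 of the 58 members had enough UMIs to be tested.

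Summed over its members, the *Mmp*, *Adamts* and *Timp* genes were the most abundant subfamilies of the mesenchyme. The 4 *Timp* genes summed to 330.2, 296 and 270.3 CPM, the *Mmp* genes to 242, 296 and 293 CPM, the *Adamts* genes to 252, 259 and 237 CPM, the *Adam* genes to 169.7, 179.6 and 153 CPM and the *Adamtsl* genes to 68.5, 74.1 and 68.2 CPM. In endothelium the *Adam* genes led, at 327, 363 and 352 CPM, and in macrophages they stood at 247, 232 and 249 CPM beside 55.0, 33.3 and 20.4 CPM for the *Mmp* genes. In muscle the sums were 102, 80.6 and 49.1 CPM for the inhibitors and 63.6, 39.0 and 68.3 CPM for the *Mmp* genes.

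In mesenchyme 17 of the 26 tested members were called higher, where 15.3% of all 10549 genes tested were. The median log2 fold of the tested members was 1.54 against 0.09 for all genes. No member was called lower by edgeR, where 5.36% of all genes were. *Adam10* passed the adjusted threshold but fell short of 2-fold (log2 fold -0.74, edgeR adjusted p = 7.00e-05). *Adam17* and *Adamts16* were lower at an unadjusted p under 0.05 only, and DESeq2 called 2 members lower. Epithelium had 6 members higher and 4 lower, beside 9.79% and 5.27% of all genes. Macrophages had 4 higher and 9 lower, beside 15.5% and 16.7%, and muscle had 2 higher and 7 lower, beside 6.66% and 13.1%. The macrophage count of higher members, 4 of 26, lay near its background.

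**Figure D1:**
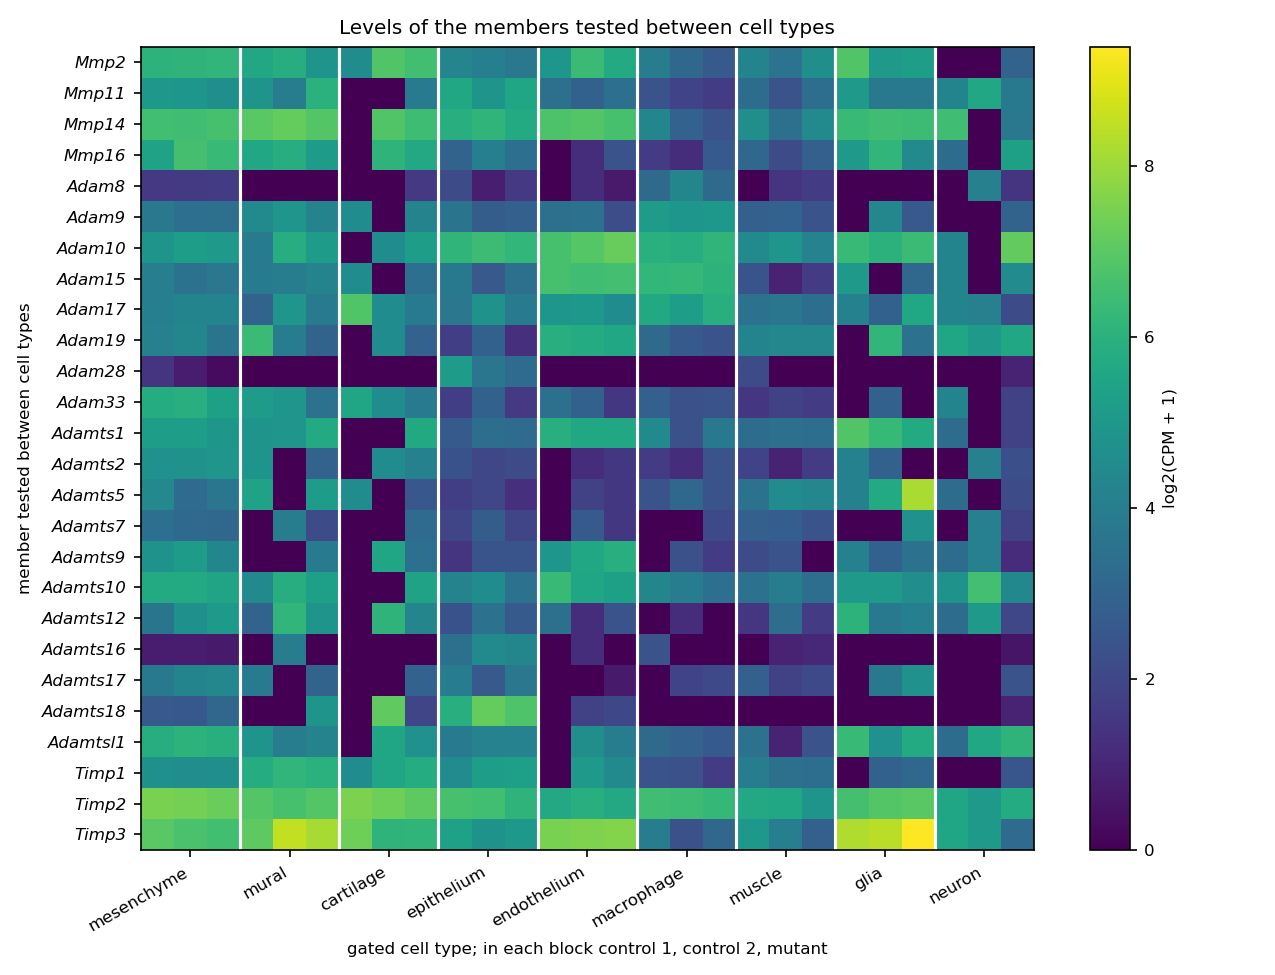
Levels of the 26 tested members (rows) in the cell types tested and in mural cells, cartilage, endothelium, glia and neurons. Blocks of 3 columns give control 1, control 2 and mutant, with colour giving log2(CPM + 1). By mean CPM over the libraries, *Adam33*, *Mmp16* and *Timp2* are highest in mesenchyme, *Adam8* and *Adam9* in macrophages and *Adamts16* and *Adamts18* in epithelium. Other rows peak outside the tested types: *Adam15* in endothelium, *Adam17* in cartilage, *Timp3* in glia and *Mmp14* in mural cells.

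Among the inhibitors, *Timp2*, which blocks MMPs and also helps MMP14 to activate the gelatinase MMP2, was the one member above 100 CPM in the mesenchyme of every library, at 179, 169 and 152 CPM. Its level was 99.1, 92.9 and 67.3 CPM in epithelium, 90.9, 85.4 and 75.1 CPM in macrophages and 49.3, 47.5 and 27.7 CPM in muscle, and no library of another tested type reached the lowest mesenchymal value. The difference was called (log2 fold 1.16, SE 0.10, edgeR adjusted p = 3.88e-08). The gene lies at chr11:118301069-118355740 (GRCm38, minus strand) and overlaps *Cep295nl* on the same strand, so reads from the shared part cannot be assigned with certainty.

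*Timp3*, the inhibitor that binds to matrix and also blocks ADAM17 and several ADAMTS enzymes, stood at 126, 103 and 93.5 CPM in mesenchyme and was called higher there (log2 fold 2.52, SE 0.16, edgeR adjusted p = 1.81e-09). Outside the tested types its levels were higher still, 178, 191 and 198 CPM in endothelium and 311, 345 and 669 CPM in glia. *Timp1*, a secreted inhibitor, was called higher both in mesenchyme, at 25.4, 23.2 and 24.5 CPM (log2 fold 1.03, SE 0.21, edgeR adjusted p = 5.70e-04), and in epithelium, at 22.3, 36.1 and 38.7 CPM (log2 fold 1.52, SE 0.23, edgeR adjusted p = 6.62e-05). Its values in these 2 types overlapped. The mesenchymal call for *Timp1* rested close to 2-fold: the log2 fold was 0.92 without control 1, 0.96 without the mutant library and 0.94 under DESeq2, and with cell types of at least 10 cells it was 0.31 in mesenchyme and 0.82 in epithelium, all short of a call. *Timp4* was sparse: 7.17, 7.63 and 5.33 CPM in muscle, from 8, 9 and 5 UMIs, against 0.347, 0.393 and 0.347 CPM in mesenchyme, and it had too few UMIs for the test.

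**Figure D2:**
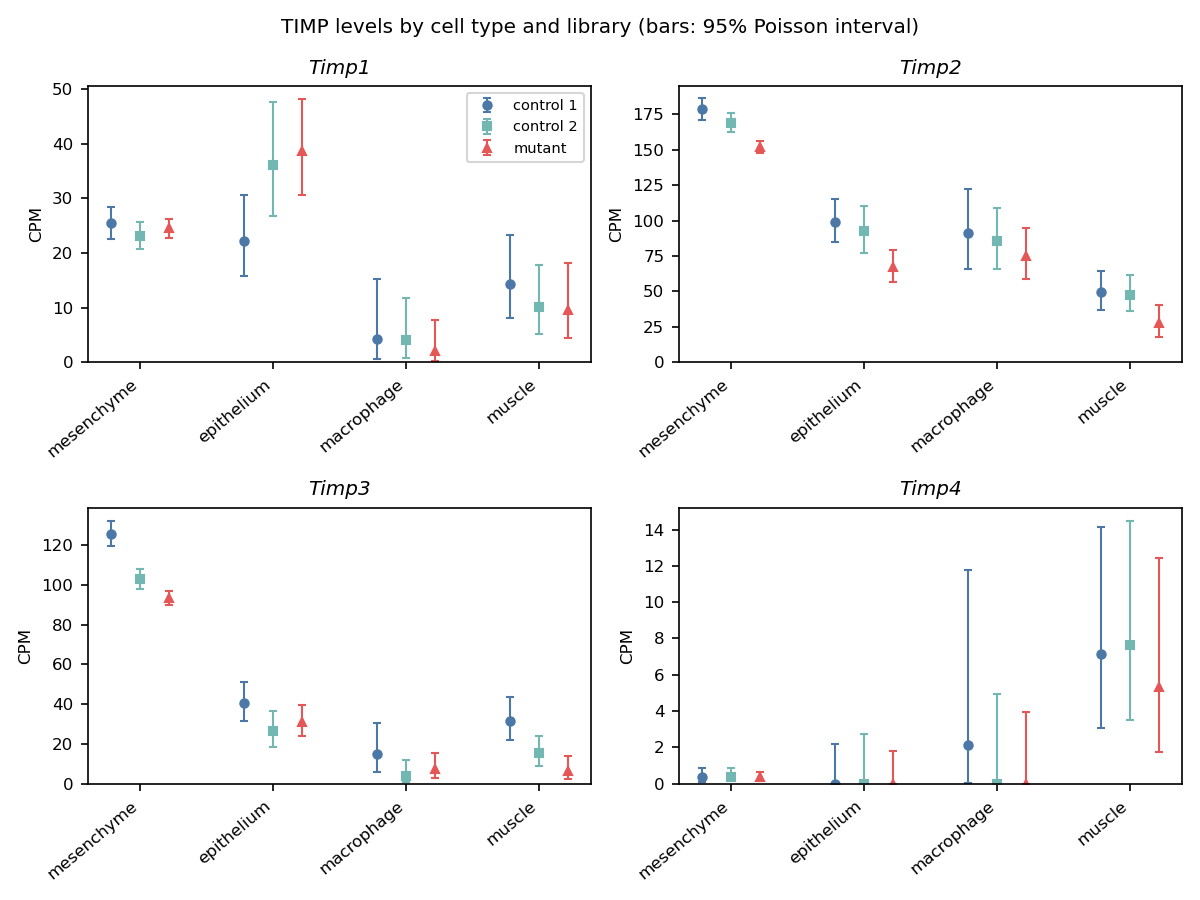
CPM (linear axes from 0) of the 4 *Timp* genes in mesenchyme, epithelium, macrophages and muscle, with each point 1 library and each bar its exact 95% Poisson interval, which covers counting error only. *Timp2* and *Timp3* are highest in mesenchyme in every library, *Timp1* overlaps between mesenchyme and epithelium, and *Timp4* points come from 8, 9 and 5 UMIs in muscle.

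Of the MMPs, 2 membrane-type enzymes and 2 secreted ones were called higher in mesenchyme. *Mmp14*, a membrane-anchored collagenase, was at 91.6, 89.4 and 99.4 CPM (log2 fold 1.99, SE 0.17, edgeR adjusted p = 6.10e-08). *Mmp16*, another membrane-type enzyme, reached 41.5, 96.6 and 80.5 CPM (log2 fold 3.46, SE 0.20, edgeR adjusted p = 5.94e-10), with the first control below the other libraries. *Mmp2*, or gelatinase A, was at 66.0, 67.8 and 71.2 CPM (log2 fold 2.22, SE 0.16, edgeR adjusted p = 4.89e-09). Among *Mmp14*, *Mmp16* and *Mmp2*, the lowest value in any library was the 41.5 CPM of *Mmp16* in control 1. *Mmp14* was also called higher in epithelium (log2 fold 1.08), at 59.8, 70.0 and 52.3 CPM, a call that was lost without control 2 (log2 fold 0.81) and with cell types of at least 10 cells (0.28), and *Mmp11*, a secreted stromelysin, was called higher in both epithelium and mesenchyme (log2 folds 2.03 and 1.42). In mesenchyme *Mmp11* stood at 30.8, 29.8 and 24.7 CPM.

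Among the ADAMs, *Adam33*, a membrane protease known from mesenchymal cells of the airway, had the second largest fold of the mesenchyme, at 55.8, 58.4 and 39.2 CPM (log2 fold 3.80, SE 0.19, edgeR adjusted p = 1.13e-10). The ADAMTS group supplied 8 of the members called higher in mesenchyme, and *Adamtsl1* a further one. By role these were the procollagen N-peptidase *Adamts2* (log2 fold 3.20), the versican-cleaving *Adamts1* and *Adamts9* (1.68 and 3.05), the pair *Adamts7* and *Adamts12*, which share a domain plan (1.32, or 0.99 and no call without control 1, and 3.12), the pair *Adamts10* and *Adamts17*, linked to fibrillin microfibrils (1.69 and 1.66), and *Adamts18*. With cell types of at least 10 cells the log2 fold of *Adamts1* in mesenchyme was 0.80, short of a call. *Adamts18* had the largest fitted fold in mesenchyme (log2 fold 4.06, SE 1.43, edgeR adjusted p = 0.0296), but at 5.21, 4.98 and 7.57 CPM its level was low, muscle and macrophages held no UMI, so that the fitted fold is no bound, and the call was lost without the mutant library (edgeR adjusted p = 0.137).

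Epithelium carried proteases that were rare in the other tested types. *Adamts18* reached 58.6, 144 and 109.9 CPM there, while muscle and macrophages held no UMI of it in any library, and it was called higher (edgeR adjusted p = 5.45e-09). Against 3 UMIs over the 3 libraries as a floor, pooled epithelium was at least 110-fold higher than muscle and at least 73.3-fold higher than macrophages. The gene lies at chr8:113697126-113848738 (GRCm38, minus strand). Its cells with a UMI made up 40.3, 49.2 and 41.9% of epithelial cells against 3.3, 2.25 and 3.94% of mesenchymal cells, at median depths of 11199, 6597 and 5861 UMIs against 7885, 5133 and 5362, and thinned to 2000 UMIs per cell the epithelial shares were 12.3, 21.6 and 19.1%.

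*Adamts16*, a close relative of *Adamts18*, was at 9.96, 21.4 and 18.9 CPM in epithelium (log2 fold 4.27, SE 0.50, edgeR adjusted p = 4.23e-06). *Adam28*, a membrane protease known from lymphocytes and epithelia, was at 35.8, 11.8 and 8.72 CPM, with control 1 above the other libraries, and was called higher (edgeR adjusted p = 2.96e-06). It held 4 UMIs in muscle, a ratio of 15 in pooled CPM, and none in macrophages, where epithelium was at least 13.3-fold higher. Lower in epithelium were *Adam33*, *Adam19*, *Adamts1* and *Adamts5*.

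*Mmp13* and *Mmp12* were not tested but showed an uneven pattern in epithelium. *Mmp13*, collagenase 3, stood at 5.28, 53.8 and 8.23 CPM, from 3, 18 and 11 cells with at most 6, 11 and 3 UMIs in a cell. Its share of epithelial cells was 2.24, 10.2 and 3.65%, against 0.307, 0.0804 and 0.0891% of mesenchymal cells. Control 2 thus stood apart for this gene. *Mmp12*, whose product is called macrophage elastase, gave 2, 12 and 2 UMIs in epithelium, 10 of the 12 UMIs of control 2 coming from 1 cell, and none in the macrophages of any library.

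The promoters below show how differently 2 members expressed in epithelium begin, a collagenase found in few cells and *Adamts18*. Each is the 250 bases before the start in RefSeq (GRCm38.p6), printed 5′ to 3′ on the strand of the gene, with capitals marking letters that match TATAAA (the TATA box), TGANTCA (the site of AP-1 factors) or GGGCGG (a GC box) on either strand.
Mmp13, chr9:7272264-7272513, plus strand: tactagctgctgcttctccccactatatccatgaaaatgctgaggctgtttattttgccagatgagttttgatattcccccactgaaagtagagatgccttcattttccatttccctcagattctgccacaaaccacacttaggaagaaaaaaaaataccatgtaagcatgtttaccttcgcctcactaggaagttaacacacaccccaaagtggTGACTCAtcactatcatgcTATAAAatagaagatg
Adamts18, chr8:113848840-113849089, minus strand: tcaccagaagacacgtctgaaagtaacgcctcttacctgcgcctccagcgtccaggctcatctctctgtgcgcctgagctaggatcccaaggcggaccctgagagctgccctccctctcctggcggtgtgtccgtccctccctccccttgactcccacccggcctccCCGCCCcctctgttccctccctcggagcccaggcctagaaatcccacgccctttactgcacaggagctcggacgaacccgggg

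The *Mmp13* window was 40.4% G and C with 1 CG pair, and held TGANTCA 35 bases and TATAAA 16 bases before the start. That of *Adamts18* was 65.2% G and C, with 15 CG pairs and GGGCGG 83 bases before the start (reverse strand). Of 35 members with an entry, 3 held TATAAA (*Mmp13*, *Adamts1* and *Adamtsl2*), 1 held TGANTCA and 24 held GGGCGG, whereas 13, 6.87 and 32.9% of 27025 promoters of the same length did. *Mmp13* lies 61.0 kb from *Mmp12* on chromosome 9, and *Mmp12* 189.0 kb from *Mmp8*.

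In macrophages the members called higher were all ADAMs. *Adam15* had the largest fold, at 74.0, 76.0 and 66.5 CPM (log2 fold 3.68, SE 0.22, edgeR adjusted p = 3.25e-10). *Adam8*, a protease of myeloid cells, was at 8.45, 18.7 and 8.58 CPM (log2 fold 2.97, SE 0.55, edgeR adjusted p = 2.34e-04), and *Adam9* at 35.9, 29.3 and 31.1 CPM (log2 fold 2.26, SE 0.23, edgeR adjusted p = 3.78e-07). *Adam17*, which releases tumour necrosis factor and ligands of the epidermal growth factor receptor, was the fourth, at 50.7, 36.0 and 59.0 CPM (log2 fold 1.95, SE 0.24, edgeR adjusted p = 2.61e-06). The 9 members lower in macrophages included *Mmp2*, *Mmp14*, *Mmp16*, *Timp1* and *Timp3*. *Adam10*, the sheddase of Notch receptors, was called lower in muscle, at 21.5, 28.8 and 17.1 CPM, and otherwise broad, at 69.2, 86.2 and 72.6 CPM in epithelium, 27.8, 36.2 and 32.0 CPM in mesenchyme and 99.1, 119.6 and 146 CPM in endothelium.

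Muscle had the 2 calls *Adamts5*, a versican- and aggrecan-cleaving enzyme, at 10.8, 22.1 and 19.2 CPM (log2 fold 1.84, SE 0.40, edgeR adjusted p = 0.00134), and *Adam19*, or meltrin beta, at 17.9, 19.5 and 19.2 CPM (log2 fold 1.68, SE 0.29, edgeR adjusted p = 1.85e-04). Both calls are against the mean of the other tested types, not against mesenchyme alone. In mesenchyme *Adamts5* stood at 20.6, 8.71 and 11.95 CPM, above muscle in control 1. *Adam19* stood there at 16.2, 18.9 and 11.1 CPM, near muscle in both controls. *Adam19* lost its call when endothelium and mural cells entered the fit (log2 fold 0.73, edgeR adjusted p = 0.0674). Lower in muscle were *Timp2*, *Adam9*, *Adam10*, *Adam15*, *Adam33*, *Adamts2* and *Adamtsl1*. Mesenchymal markers summed to 78.8, 54.3 and 50.1 CPM in the muscle gate, against 1451, 1477 and 1391 CPM in mesenchyme.

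Endothelium and mural cells, with as few as 16 and 12 cells in a library, were brought into a second fit, chosen after the data were seen, that asked for 10 cells and tested 28 members. In endothelium 11 members were called higher, beside 10.6% of all genes. *Mmp15*, a membrane-type enzyme, was at 79.3, 68.3 and 39.5 CPM (log2 fold 4.17, SE 0.31, edgeR adjusted p = 1.01e-11), *Adamts9* at 29.7, 47.3 and 59.2 CPM (log2 fold 3.16, SE 0.32, edgeR adjusted p = 7.14e-09) and *Adam15* at 99.1, 90.7 and 95.6 CPM (log2 fold 2.84, SE 0.19, edgeR adjusted p = 1.12e-12). In mural cells 10 were called higher, beside 5.29%. The largest fitted fold was that of *Adamts18* (log2 fold 3.77, SE 1.17, edgeR adjusted p = 0.0473), which is no bound because muscle and macrophages held no UMI of it. The others included *Adamts15* (log2 fold 3.61, SE 0.65, edgeR adjusted p = 2.75e-04), *Adamts12* (log2 fold 2.63, SE 0.62, edgeR adjusted p = 0.00588) and *Timp3* (log2 fold 2.49, SE 0.26, edgeR adjusted p = 6.96e-08).

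The remaining gates had too few cells for a test. *Adam23*, an ADAM without protease activity, was at 81.9, 182 and 62.3 CPM in glia, and *Mmp15* at 131, 104 and 49.3 CPM. *Adamts5* stood at 16.4, 52.1 and 296 CPM in glia, from 1, 8 and 114 UMIs in 6, 30 and 133 cells, so the first control rests on a single UMI. The glial cells of the libraries also differed in depth, with medians of 10022.5, 4613 and 2589 UMIs. *Mmp24*, a membrane-type enzyme of neurons, was at 17.8, 15.9 and 17.3 CPM in neurons. The control neurons numbered 15 and 8 and held 112157 and 62847 UMIs of all genes. In control 2 the value of 15.9 CPM is that of 1 UMI, so the likeness of the libraries says little. Neutrophils were gated in control 1 alone, 67 cells, where the neutrophil collagenase *Mmp8* reached 265 CPM (37 UMIs in 20 cells), the gelatinase *Mmp9* 222 CPM (31 UMIs in 23 cells) and *Adam8* 50.1 CPM.

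Other members outside the test had their highest mean level in a small gate. *Adam11*, an ADAM without protease activity known from the nervous system, was at 0, 15.9 and 46.0 CPM in neurons, where 15.9 CPM in control 2 is 1 UMI. *Mmp17*, an enzyme anchored by a lipid, was at 49.1, 32.6 and 13.0 CPM in glia, from 3, 5 and 5 UMIs. *Adam22*, also without protease activity, was at 22.9, 22.5 and 5.78 CPM in cartilage, where each control value is that of 1 UMI. In mesenchyme it was at 7.38, 12.0 and 11.5 CPM, so that it was not confined to a gate. *Adam4*, *Adam5*, *Adam30* and *Mmp28* had a mean under 1 CPM in every cell type.

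Within mesenchyme the same test compared perimysial, midline, osteogenic, tendon and remaining cells, gates named for marker genes that are no members, and 39 members were tested. Osteogenic cells, which numbered 127, 50 and 446, had 3 members higher and 6 lower, beside 2.85% and 4.66% of 12195 genes. *Adamts18* was at 8.76, 40.2 and 35.9 CPM there and had no UMI in tendon cells, against which the pooled osteogenic level was at least 30.7-fold higher. *Adam12*, or meltrin alpha, was at 3.37, 11.5 and 22.2 CPM (log2 fold 1.57, SE 0.31, edgeR adjusted p = 3.45e-04), and without the mutant library the call was lost (log2 fold 0.16, edgeR adjusted p = 0.906). *Mmp23* was at 11.5, 3.83 and 10.8 CPM (log2 fold 1.03, SE 0.31, edgeR adjusted p = 0.0154), and its call was lost under DESeq2 (log2 fold 0.94) and without the mutant library (0.73). Lower in osteogenic cells were *Adamts5*, *Adamts15*, *Adamts19*, *Adamts20*, *Adamtsl1* and *Adamtsl3*.

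Perimysial cells, the fibroblasts around the muscle, numbered 262, 195 and 369 and had 2 members higher, beside 1.8% of all genes. Both are proteoglycan-cleaving enzymes. *Adamts5* was at 51.9, 20.6 and 22.2 CPM (log2 fold 1.61, SE 0.21, edgeR adjusted p = 6.72e-06) and *Adamts15* at 27.0, 17.6 and 10.4 CPM (log2 fold 1.47, SE 0.23, edgeR adjusted p = 1.22e-04). Control 1 stood above the other libraries for both genes. Both calls held without any one library. The inhibitor *Timp3* stood at 129, 249.7 and 151 CPM in perimysial cells and 109, 82.3 and 59.5 CPM in osteogenic cells, and stayed short of 2-fold in both (log2 folds 0.68 and -0.44).

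Tendon cells, which numbered 29, 89 and 186, had 1 member higher and 1 lower, beside 0.238% and 0.0246% of all genes. The higher one was *Adamts6*, related to *Adamts10*, at 13.8, 26.2 and 12.4 CPM (log2 fold 1.38, SE 0.34, edgeR adjusted p = 0.0465), and its call was lost without control 1 (edgeR adjusted p = 0.0527) or control 2 (edgeR adjusted p = 0.41). The lower one was *Adamts18*, with no UMI. No member was called higher by edgeR in midline cells (0.426% of all genes) or in remaining mesenchyme (0.041%). At an unadjusted p under 0.05 there were 5 in midline cells, *Adam33*, *Adam8*, *Adamts1*, *Adamtsl1* and *Mmp16*, and 1 in remaining cells, *Mmp11*, and DESeq2 called none in either.

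**Figure D3:**
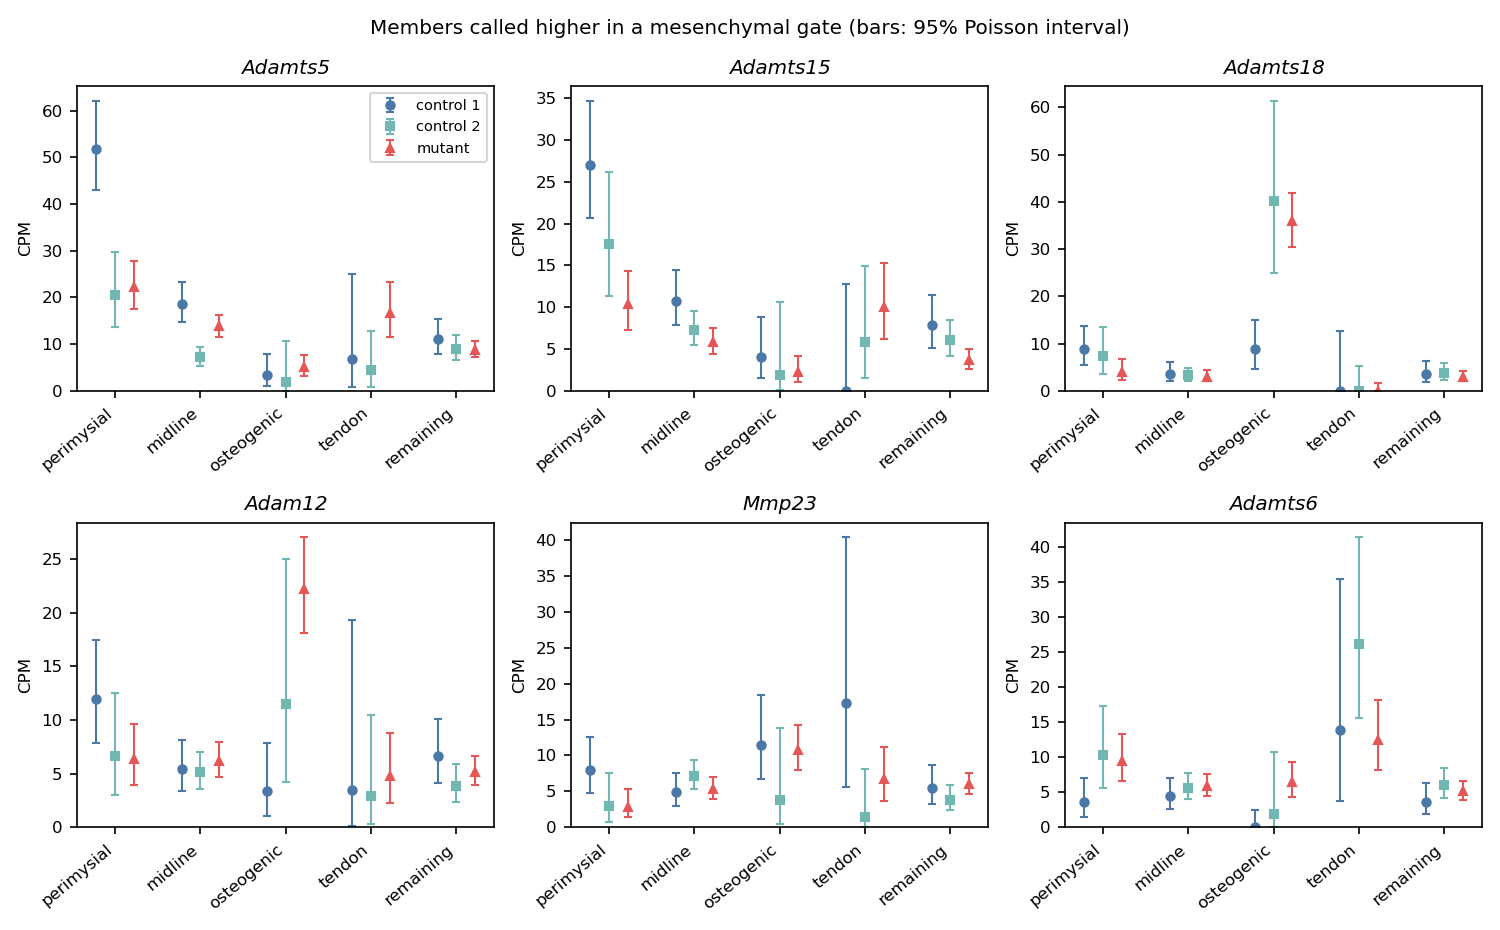
CPM (linear axes from 0) of the 6 members called higher in a mesenchymal gate, by gate, with each point 1 library and each bar its exact 95% Poisson interval. *Adamts5* and *Adamts15* are highest in perimysial cells and *Adamts18* and *Adam12* in osteogenic cells of the mutant and control 2, and *Adamts18* is at 0 in tendon cells of every library.

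The comparison of the mutant with the controls had 1 mutant library, and no test was run, so no p-value is given. A member was counted as past 2-fold when the mutant lay beyond both controls and its log2 ratio to their mean was at least 1 in size and larger than the gap between the controls. In mesenchyme 22 members with at least 10 CPM could be compared. None was past 2-fold in either direction, where 0.87% of all genes were up and 1.06% down. Their median log2 ratio was -0.03 against -0.05 for all 8504 genes. Of the 22 members, 5 were above both controls, 8 below both and 9 between them. Of the 8504 genes, 1726 were above both, 3232 below both and 3546 between.

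Among the abundant enzymes and inhibitors of the mesenchyme, *Mmp14* gave a log2 ratio of 0.14 (gap between the controls 0.03), *Mmp2* 0.09 (gap 0.04), *Timp1* 0.01 (gap 0.13), *Timp2* -0.19 (gap 0.08) and *Timp3* -0.28 (gap 0.29). The signs for *Mmp2* and *Timp1* depended on how cells were weighted: *Mmp2* was at -0.11 as a mean over cells, and *Timp1* at -0.12 with the mesenchymal gates weighted equally. The members of this set farthest below both controls were *Adamts9*, at 26.7, 34.3 and 19.0 CPM (log2 ratio -0.67, gap 0.36), *Adam19*, at 16.2, 18.9 and 11.1 CPM (-0.65, gap 0.22), and *Adam33*, at 55.8, 58.4 and 39.2 CPM (-0.54, gap 0.06). *Adamts12* had the largest ratio upward, 11.5, 24.95 and 32.9 CPM (0.96), but within a gap of 1.12.

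**Figure D4:**
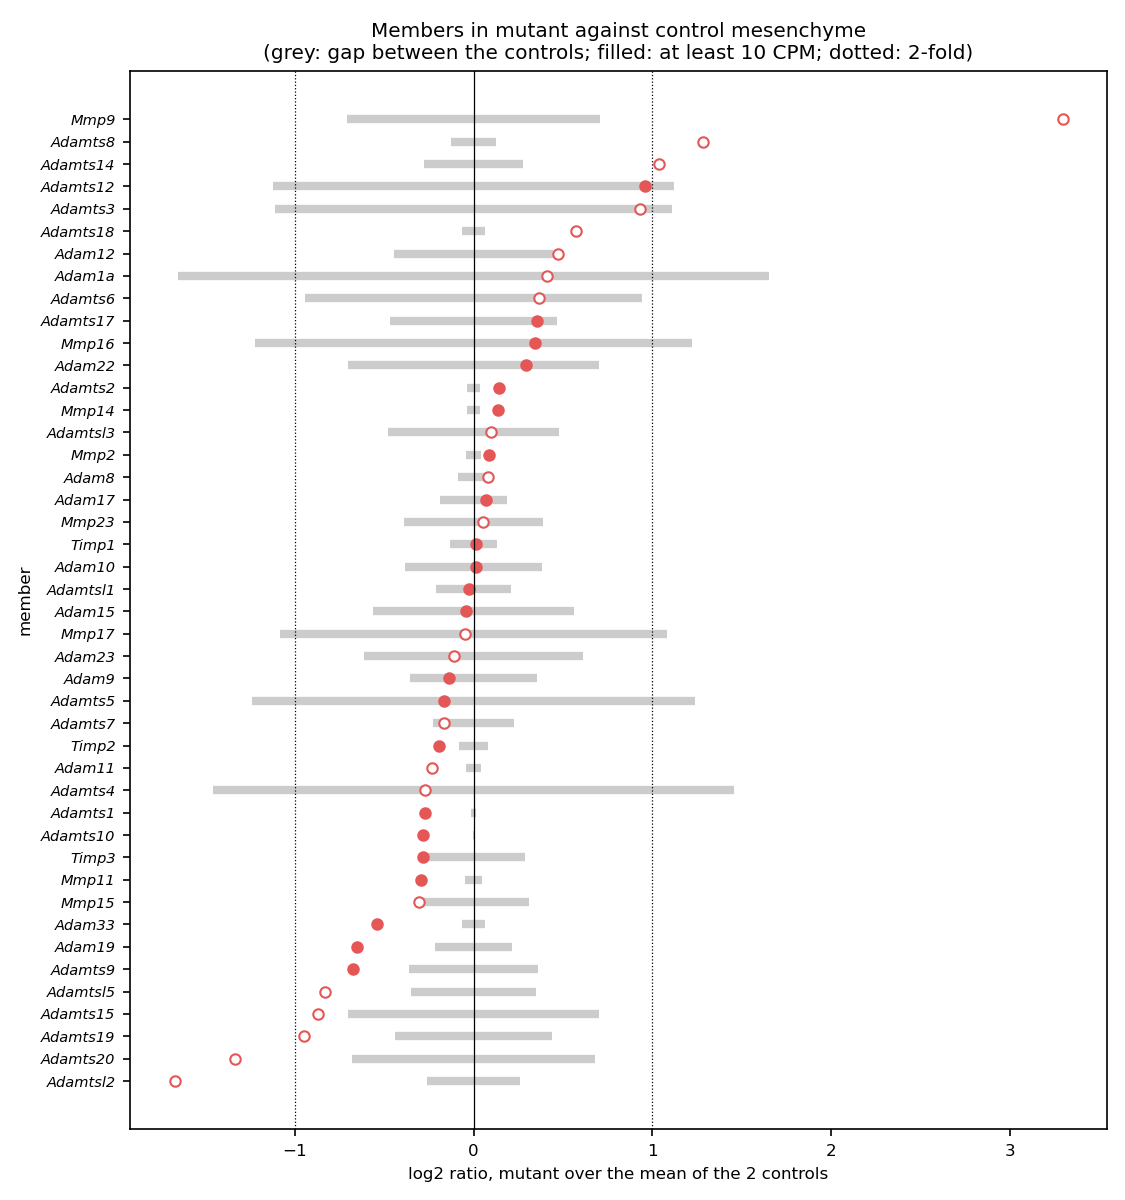
Log2 ratio of the mutant to the mean of the controls in mesenchyme for the 44 members with at least 1 CPM, sorted. Filled points are the 22 with at least 10 CPM. Grey bars extend by the gap between the controls to each side of no change. Dotted lines mark 2-fold, which no filled point passes. *Mmp9* lies farthest to the right, at 3.29.

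With the minimum lowered to 1 CPM, 44 members could be compared, of which 3 were up and 2 down, beside 1.55% and 3.3% of all genes. *Mmp9*, or gelatinase B, had the largest ratio, at 0.521, 0.851 and 6.53 CPM from 6, 13 and 207 UMIs (log2 ratio 3.29, gap 0.71). The gene lies at chr2:164940780-164955850 (GRCm38, plus strand). A UMI was seen in 6 of 1304, 13 of 2489 and 178 of 4491 mesenchymal cells, or 0.46, 0.522 and 3.96% (exact 95% interval in the mutant 3.41 to 4.58%), with at most 1, 1 and 5 UMIs in a cell. Thinned to 2000 UMIs per cell the shares were 0.077, 0.127 and 1.11%. In muscle, at median depths of 15064, 7973.5 and 6816 UMIs, no cell of 76, 132 and 128 held one, which allows shares of up to 3.95, 2.27 and 2.34%, limits that cover counting error only.

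With a control count of 0 set to 3 UMIs, *Mmp9* was above both controls in 3 of 5 mesenchymal gates. It stood at 0.443, 0.734 and 7.78 CPM in perimysial cells, 0, 0.415 and 6.46 CPM in midline cells and 1.21, 0.916 and 6.55 CPM in remaining mesenchyme. In osteogenic cells, at 0.674, 7.66 and 6.51 CPM, control 2 was above the mutant. Tendon cells held 0, 0 and 10 UMIs, too few to place the mutant. Mural cells, which numbered 14, 12 and 61, held 6.92, 14.3 and 34.9 CPM of *Mmp9*. There 3 UMIs are 20.8 CPM in control 1 and 42.9 CPM in control 2, so both control values rest on fewer UMIs than that. Mural markers within mesenchyme summed to 58.4, 58.8 and 83.6 CPM, with 1, 1 and 0 of 8 at 0 (their part in the result was not tested). Neutrophil markers, from a cell type with high *Mmp9*, summed to 5.90, 0.458 and 0.252 CPM in mesenchyme with 4, 4 and 5 of 8 at 0, and their part in the result was not tested either.

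Up at this lower minimum were also *Adamts8*, an enzyme that cuts proteoglycans, at 0.781, 0.851 and 1.99 CPM (log2 ratio 1.28, gap 0.12), and *Adamts14*, a procollagen N-peptidase like *Adamts2*, at 1.82, 1.51 and 3.40 CPM (1.04, gap 0.27). By the same floor the mutant lay above both controls in 3 of 5 mesenchymal gates for *Adamts8*, whose controls held no UMI in osteogenic and tendon cells, and in 4 of 5 for *Adamts14*, whose controls held none in tendon cells. *Adamts8* fell short of 2-fold as a mean over cells (0.77) and *Adamts14* after thinning to 2000 UMIs per cell (0.70). Down were *Adamts20*, which cuts versican, at 8.59, 13.8 and 4.32 CPM from 99, 210 and 137 UMIs (-1.33, gap 0.68), and *Adamtsl2*, at 1.65, 1.38 and 0.473 CPM (-1.67, gap 0.26). The mutant lay below both controls for *Adamts20* in 4 of 5 gates, each with UMIs in every library. *Adamts15*, whose gene lies 20.1 kb from *Adamts8* on the opposite strand of chromosome 9, was below both controls, at 12.2, 7.53 and 5.26 CPM (-0.87, gap 0.70).

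Short of 2-fold, *Adamts19* was below both controls in mesenchyme, at 8.07, 5.96 and 3.59 CPM (-0.95, gap 0.44), and in 5 of 5 gates. *Adam30* gave 2, 2 and 21 UMIs and was not counted, having under 1 CPM in every library. Its start lies 10.3 kb past the end of *Notch2* on the same strand, and whether reads from that gene were counted for it was not tested. *Adam28* was at 1.65, 0.655 and 0.221 CPM in mesenchyme, where epithelial markers summed to 81.1, 43.9 and 18.1 CPM in the same order, and their part in the result was not tested.

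**Figure D5:**
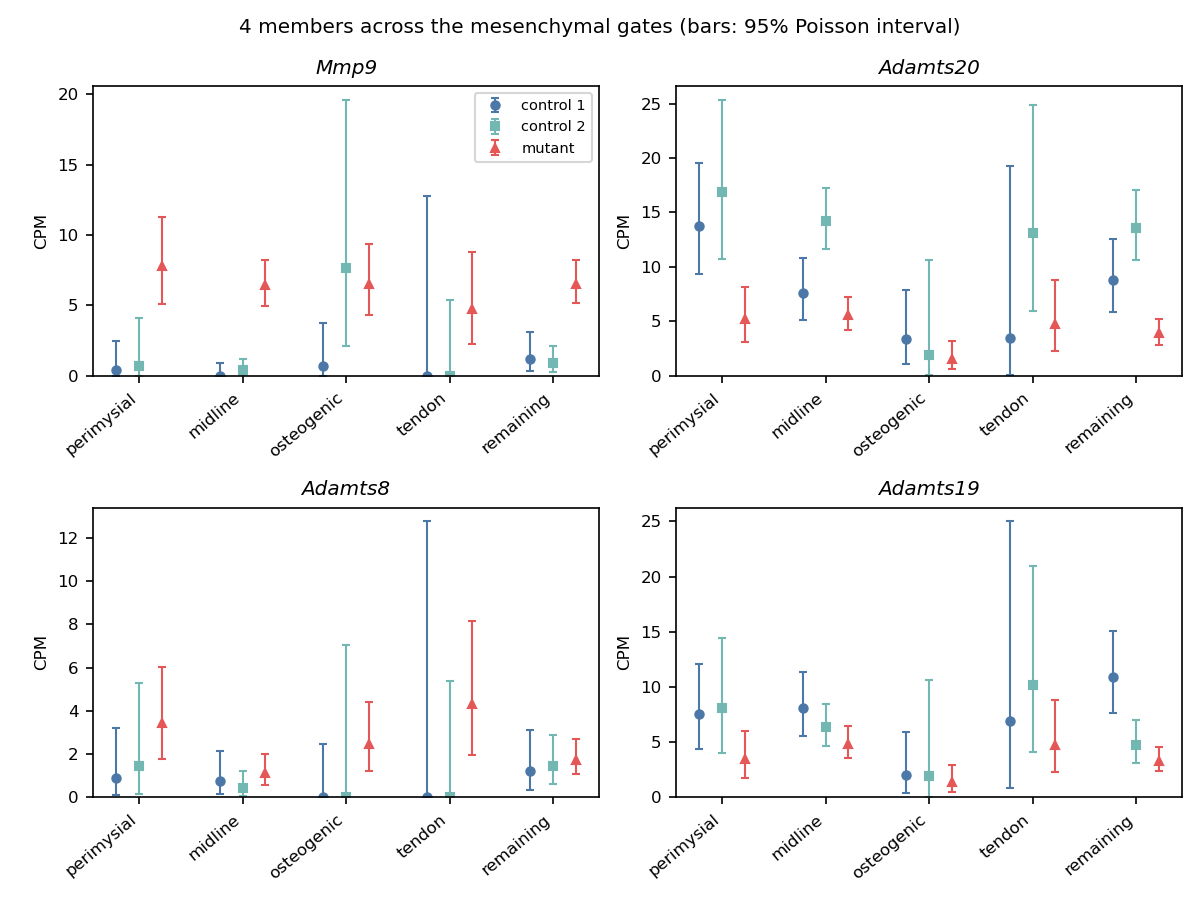
CPM (linear axes from 0) of *Mmp9*, *Adamts20*, *Adamts8* and *Adamts19* in each mesenchymal gate, with each point 1 library and each bar its exact 95% Poisson interval. The mutant is above both controls in perimysial, midline and remaining cells for *Mmp9* and *Adamts8*, whose controls are at 0 in tendon cells, and below both in all 5 gates for *Adamts19*.

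Inside the mesenchymal gates, a few members, named here after their values were seen, passed 2-fold at the 10 CPM minimum. In perimysial cells, where 2 of 27 members and 3.89% of all genes did in either direction, *Adamts15* was at 27.0, 17.6 and 10.4 CPM (-1.07) and *Adamts20* at 13.7, 16.9 and 5.19 CPM (-1.55), both lower in the mutant. The markers of this gate summed to 746, 777 and 494 CPM in it, lower in the mutant too, and their part in the result was not tested. In tendon cells (2 of 24 members, 6.68% of all genes) *Adamts2* was at 10.4, 20.4 and 34.4 CPM (1.24) and *Adamts5* at 6.92, 4.36 and 16.7 CPM (1.60), both higher. There 3 UMIs are 10.4 CPM in control 1 and 4.36 CPM in control 2, so these control values rest on few UMIs. The tendon markers summed to 495, 454 and 359 CPM in their gate, and their part in the result was not tested. In osteogenic cells (1 of 21 members, 3.19% of all genes) *Adam12* was higher (1.84, gap 1.77). The osteogenic markers summed to 1013, 1741 and 2147 CPM in their gate, higher in the mutant too, and their part in the result was not tested. In remaining mesenchyme (1 of 19 members, 2.16% of all genes) *Adamts9* was lower, at 27.5, 36.1 and 14.1 CPM (-1.16). In midline cells (2.05% of all genes) 0 of 22 members did.

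Outside mesenchyme, 0 of 15 members in epithelium passed 2-fold, beside 3.5% of all genes, and 0 of 7 in macrophages, beside 7.7%. In endothelium 1 of 16 did, beside 5.81%, namely *Adamts4*, a proteoglycan-cleaving enzyme, at 19.8, 11.8 and 6.17 CPM from 2, 9 and 10 UMIs (-1.31). In muscle 1 of 10 did, beside 5.62%: *Timp3*, at 31.4, 15.3 and 6.40 CPM from 35, 18 and 6 UMIs (-1.77, gap 1.04). Mesenchymal markers in the muscle gate summed to 78.8, 54.3 and 50.1 CPM, and their part in this result was not tested.

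The wider pathway was followed with a fixed list of 41 partners: activators and convertases, other inhibitors, related proteases, sheddase regulators and ADAMTS substrates. Of 21 tested between cell types, 12 were higher and 2 lower in mesenchyme, where 15.3% and 5.36% of all genes were, and 3 were higher in epithelium, where 9.79% were. In macrophages 5 were higher and 13 lower, beside 15.5% and 16.7% of all genes, and in muscle 1 was higher and 4 lower, beside 6.66% and 13.1%. The substrates *Vcan* (versican, 328, 349 and 217 CPM) and *Fbn2* (fibrillin 2, 313, 491 and 338 CPM) were among those higher in mesenchyme (log2 fold 2.06, SE 0.15, edgeR adjusted p = 6.76e-09, and log2 fold 2.87, SE 0.13, edgeR adjusted p = 4.53e-11), as were the membrane inhibitor *Reck* (19.7, 26.5 and 23.7 CPM) and the serpin *Serpine2* (251, 244 and 298 CPM). *Furin*, the convertase that activates many of the proteases, was higher in epithelium, at 58.0, 109 and 64.9 CPM (log2 fold 1.49, SE 0.15, edgeR adjusted p = 7.05e-07). *Rhbdf2*, which helps ADAM17 to the cell surface, was higher in macrophages, where ADAM17 transcripts were higher too, at 12.7, 10.7 and 10.7 CPM (log2 fold 3.77, SE 0.55, edgeR adjusted p = 2.37e-05). Of the other sheddase regulators, *Tspan14* and *Tspan33* were higher in macrophages and *Rhbdf1*, *Tspan5* and *Tspan15* were lower.

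Of 27 partners tested within mesenchyme, 1, the plasminogen activator *Plat*, was higher in perimysial cells, beside 1.8% of all genes, and 3 (*Fbn2*, *Plat* and *Spock3*) were lower in osteogenic cells, beside 4.66%. In mutant mesenchyme 0 of 17 partners passed 2-fold, where 0.87% of all genes were up and 1.06% down. *Vcan* was below both controls, with a log2 ratio of -0.64 and a gap of 0.09, as were *Rhbdf1*, at 17.2, 16.2 and 9.39 CPM (-0.83), and *Tspan5*, a tetraspanin that binds ADAM10, at 45.3, 44.1 and 29.2 CPM (-0.61). The collagen chaperone *Serpinh1* was above both, at 736, 775 and 887 CPM (0.23).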

How the data were processed

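Single-cell 3′ libraries (10x chemistry) were made from 2 control soft palates and 1 mutant soft palate sample at E14.5. The authors deposited raw UMI counts per gene and barcode, made with Cell Ranger (version 4.0.0 per the file headers, version 3.1.0 and build mm10 per the submitters' processing notes), with no normalization. The columns of each matrix belong to 1 sample, so grouping followed the labels. Summed counts per library and cell type were computed here from the deposited counts with Python 3.11.15.

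The members and gene lists were chosen with earlier results of these data known. Barcodes with under 500 genes or over 10% mitochondrial UMIs were dropped. A barcode took the type with the largest share of its markers detected, with at least 2 markers and ties unassigned, and hemoglobin at or above 10% of its UMIs marked erythroid cells. Barcodes with 3 or more markers of another type were left out as possible doublets, except mesenchyme with mural or cartilage markers, and no doublet caller was run. The members are no markers of any gate. Levels are CPM with exact 95% Poisson intervals, and intervals and floors cover counting error only, since they say nothing of the spread between embryos.

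Between cell types and between mesenchymal gates, edgeR 4.0.16 (R 4.3.3) fitted its quasi-likelihood test with the library as a block, TMM factors, its filter on low counts and Benjamini-Hochberg adjustment over all genes tested. DESeq2 1.42.0 was an alternative. The fit and the rule for the mutant were tested on simulated data. For the mutant, a count of 0 was set to 3 UMIs. The genes named were all *Timp* genes, up to 3 members with the largest fold in each cell type and gate, members past 2-fold in mutant mesenchyme, members of at least 100 CPM in mesenchyme of each library and partners past 2-fold in mutant mesenchyme; others were named after their values were seen. Alternatives were DESeq2, no TMM factors, no filter, leaving out each library, gates of at least 3 markers, keeping barcodes with a second type, at least 200 genes with no mitochondrial limit, a 1 CPM minimum, and for the mutant TMM factors, a mean over cells and thinning to 2000 UMIs per cell. Positions are GRCm38 from the reference annotation, in which all 58 members were found.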

Additional observations from a re-analysis of the deposited data

Results flagged for a closer look

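*Adam17*, which releases growth factor ligands from the cell surface, had opposite ratios in 2 mesenchymal gates. In osteogenic cells it stood at 11.5 and 7.66 CPM in the controls and 15.3 CPM in the mutant (17, 4 and 68 UMIs), a log2 ratio of 0.70. In tendon cells it stood at 31.1 and 26.2 CPM in the controls and 18.1 CPM in the mutant (9, 18 and 38 UMIs), a log2 ratio of -0.66. The mutant lay above both controls in the first gate and below both in the other, and the ratios differ by 1.36. With 1 mutant library the difference was not tested.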

How the results depend on the processing

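No paired analysis was possible because the mutant has 1 library, so the groups share fewer than 2 replicate numbers. The fit with at least 10 cells and the equally weighted gates were chosen after the data were seen. No called fold and no ratio past 2-fold in the main setting reversed its direction. The rule could not label the other ratios as reversed, whatever their sign. Of the counts, 85 alternatives stayed within 1.5 times and 33 did not. Of the named folds and ratios, 253 alternatives stayed the same. In 10 a fold fell short of a call, and in 30 a ratio moved by at least the standard deviation of the controls.

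Without the filter on low counts all 58 members were tested. Those called higher were 12 of 58 in epithelium (6 of 26 with the filter) and 32 of 58 in mesenchyme (17 of 26). They were 1 of 58 in midline cells (0 of 39 with the filter) and 2 of 58 in tendon cells (1 of 39). With a second type kept the members called higher were 10 of 39 in epithelium and 0 of 38 in tendon cells. With at least 10 cells 1 of 28 was called higher in muscle (2 of 26 in the main fit). Leaving out each library gave 5 to 8 in epithelium, 16 to 20 in mesenchyme, 4 to 5 in macrophages, 2 to 3 in perimysial cells, 1 to 3 in osteogenic cells (1 without the mutant) and 0 to 2 in tendon cells (0 without either control). Those fits tested 27 to 29 members between cell types and 34 to 41 between gates. The tendon gate could not be used with at least 3 markers. Without TMM factors the median log2 fold of all genes moved from 0.01 to 0.23 in epithelium, from -0.09 to -0.30 in macrophages, from 0.09 to 0.26 in mesenchyme, from -0.12 to -0.29 in muscle and from -0.05 to -0.24 in osteogenic cells, and the members called higher and lower became 8 and 3 in epithelium and 2 and 9 in osteogenic cells.

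Members past 2-fold in the mutant at 1 CPM were 5 of 44 in mesenchyme, 3 of 41 in epithelium, 7 of 35 in endothelium, 10 of 36 in macrophages and 6 of 41 in muscle, where 4.85, 9.48, 13.3, 19.3 and 15% of all genes were. A count of 0 was set to 3 UMIs, which is 29.74 CPM in control 1 endothelium. Where a control holds no UMI, a mutant value under that floor can thus count as lower. In endothelium 84 of all genes were up and 1581 down, and all 7 members were down. How far the floor set these counts was not tested. With gates of 3 markers the members past 2-fold were 1 of 14 in epithelium (56 and 261 of 8396 genes up and down). They were 2 of 17 in endothelium (88 and 429 of 8045) and 2 of 9 in muscle (160 and 324 of 7118). With a second type kept they were 1 of 20 in epithelium (48 and 150 of 8785 genes up and down). They were 3 of 20 in endothelium (185 and 186 of 8364) and 1 of 12 in macrophages (216 and 286 of 7699). With TMM factors 1 of 22 was past 2-fold in mesenchyme (*Adamts12*), beside 106 and 58 of 8582 genes. Without control 1 they were 1 of 23 in mesenchyme, 6 of 20 in epithelium, 2 of 18 in endothelium, 2 of 8 in macrophages and 3 of 11 in muscle. Genes up and down there were 80 and 165 of 8814, 93 and 447 of 8730, 258 and 621 of 8414, 311 and 747 of 7816, and 188 and 482 of 7459. Without control 2 the members were 2 of 24, 2 of 17, 5 of 16, 2 of 10 and 2 of 11 in the same order. Genes up and down were then 147 and 213 of 8734, 213 and 630 of 8794, 769 and 1704 of 8266, 461 and 988 of 8161, and 241 and 602 of 7445. The cause was not tested. The ratio of *Mmp9* ran from 2.73 to 3.65 over its alternatives, and those of *Mmp2* and *Timp1* took both signs. Depth limits the members under 10 CPM, whose counts are small, and 1 mutant library limits every ratio.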
